A study of Caenorhabditis elegans with 6 samples.

Results

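Lysozymes, saposin-like proteins, thaumatin-like proteins and antibacterial factor-related (ABF) peptides are encoded in Caenorhabditis elegans by 5 gene families, named lys, ilys, spp, thn and abf. The members described here were all rows of the deposited table whose gene symbol begins with lys-, ilys-, spp-, thn- or abf-, which gave 53 genes of 46748: 10 lys, 6 ilys, 23 spp, 8 thn and 6 abf. RNA was sequenced from whole worms of the strain CF512 on day 1 of adulthood. The worms were fed RNAi bacteria against daf-2, RNAi bacteria against cav-1, or bacteria carrying the empty vector (EV). All 3 groups had the CF512 background and were kept from the egg stage at 25 °C for 48 h, a temperature that makes this strain sterile. Each group had 2 libraries, numbered repeat 1 and repeat 2, and each repeat held 1 library of every group. RNAi by feeding is not aimed at a chosen tissue, and each library averaged all tissues of many worms.

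Lysozymes cut the peptidoglycan of bacterial cell walls. The lys genes of the worm encode lysozymes of the protist type, and the ilys genes encode lysozymes of the invertebrate type. The spp genes encode saposin-like proteins, among them the caenopores, small proteins that open pores in bacterial membranes. Thaumatin-like proteins are named for their likeness to a family of plant defence proteins, and ABF peptides resemble defensins. Many of these proteins are made in the intestine, where bacteria are both food and possible pathogens. The gene daf-2 encodes the insulin/IGF-1 receptor, whose loss lets the transcription factor DAF-16 enter the nucleus, and lys-7 and spp-1 are well-known genes downstream of DAF-16. Caveolins, of which cav-1 is a member, coat small invaginations of the cell membrane.

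Library totals ran from 25474328 to 32886440 counts, and levels are given as CPM, counts divided by the scaled library total and put on a common scale. A count of 3 was worth 0.0889 to 0.117 CPM depending on the library, a limit that covers counting error only. Both targets were lower under their own RNAi: daf-2 had 26.4 and 30.6 CPM under daf-2 RNAi, against 42.6 and 188 CPM with EV, and cav-1 had 6.13 and 1.84 CPM under cav-1 RNAi, against 178 and 184 CPM with EV. Under daf-2 RNAi cav-1 was also lower, at 42.7 and 21.2 CPM. The repeats differed more than the groups did: 57.6% of the 14378 genes tested differed between repeat 2 and repeat 1 (limma, adjusted p under 0.05), so groups were compared within repeats, with the repeat number as a term of the fit. Without that term the fit called no gene in the whole table in any of the 3 comparisons between groups. A gene is named here as called, or as having risen or fallen, when its limma p-value, adjusted over all genes tested, was under 0.05. The p-values measure the spread between these libraries, which the series describes as biological repeats.

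Of the 53 members, 40 passed the filter on low counts and were tested: 8 lys, 4 ilys, 21 spp, 3 thn and 4 abf genes. Of these 40, 33 passed the filter in all 6 libraries, and spp-21 passed it only through the EV libraries. The 13 members left out were near or at 0 everywhere. Among them lys-9, thn-4, thn-7 and abf-3 had no count in any library, and lys-10, the highest of the lys and ilys genes left out, reached 0.156 CPM. The annotation marks thn-3, thn-7 and thn-8 as pseudogenes, and none of these passed the filter.

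Levels spanned more than 3 orders of magnitude and were concentrated in a few genes. Per kilobase of the longest transcript, and averaged over the 6 libraries, spp-5 was highest at 2580 CPM, followed by spp-14 at 2280 CPM. Both encode short saposin-like proteins, and SPP-5 is caenopore-5, whose pore-forming activity has been shown directly. The next were spp-17 at 965, lys-1 at 956, lys-7 at 700, lys-2 at 676 and thn-2 at 550 CPM per kilobase. The highest invertebrate-type lysozyme gene was ilys-5 at 145 CPM per kilobase, and the highest abf gene was abf-2 at 94.1. Within families the spread was wide, with lys-5 at 0.528 and spp-11 at 0.589 CPM per kilobase at the low end of the tested lys and spp genes. The plot of member levels by library shows this range gene by gene.

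**Figure D1:**
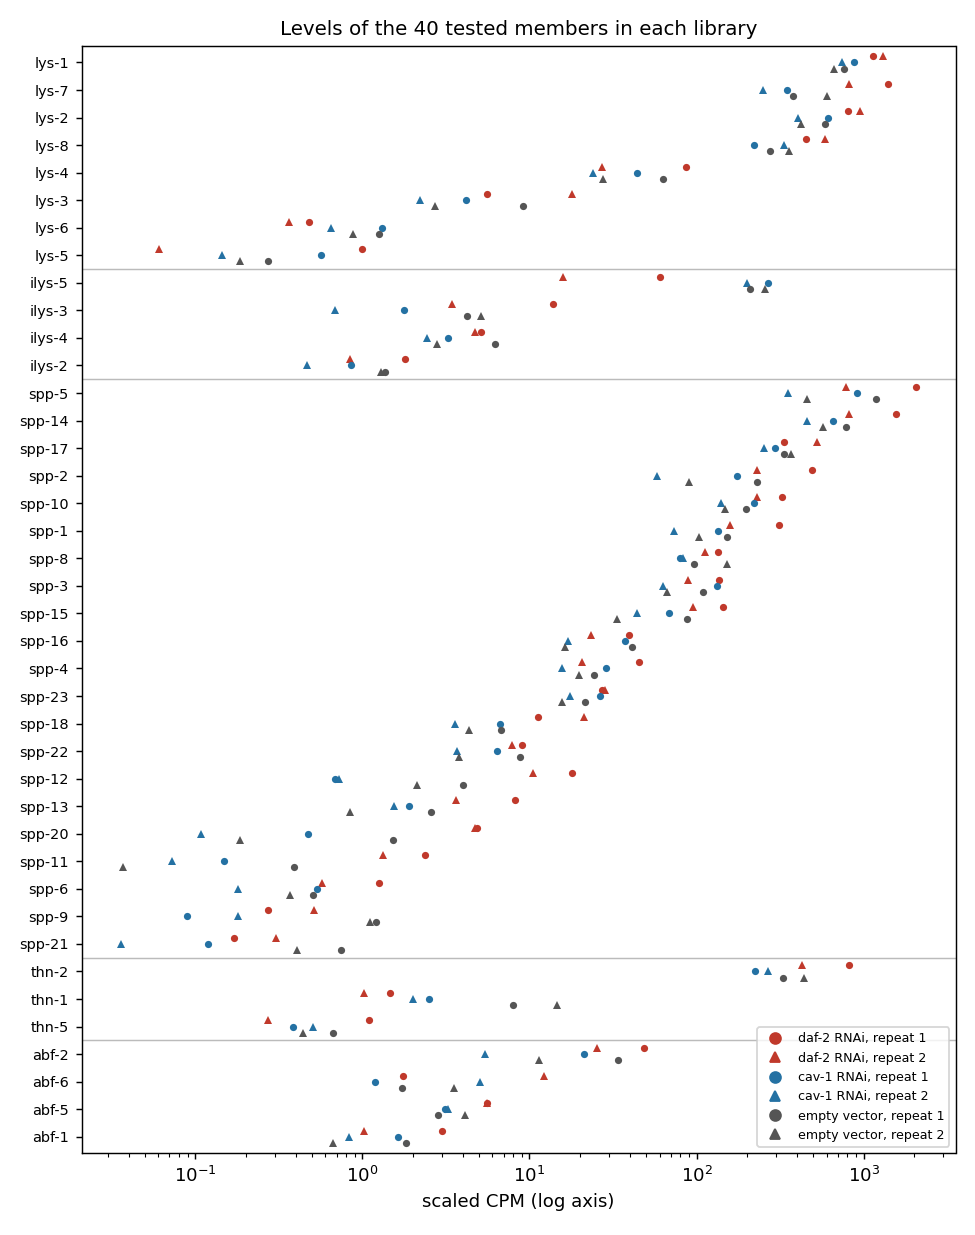
Scaled CPM (log axis) of the 40 tested members in each of the 6 libraries, ordered within each family by mean level, with the group shown by colour and the repeat by circle or triangle. The daf-2 RNAi points of ilys-5 and thn-1 lie left of both other groups, and those of spp-12 and spp-20 lie right of them.

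Summed over its members, each family apart from ilys had its highest library under daf-2 RNAi. The lys genes together had 3895 and 3713 CPM in the daf-2 RNAi libraries, 2104 and 1760 CPM in the cav-1 RNAi libraries, and 2070 and 2072 CPM with EV. The spp genes had 5661 and 3168 CPM in the daf-2 RNAi libraries, 2780 and 1586 CPM in the cav-1 RNAi libraries, and 3282 and 2057 CPM with EV. For lys both daf-2 RNAi libraries lay above all other libraries, whereas for spp repeat 2 under daf-2 RNAi lay below repeat 1 with EV. The ilys genes went the other way, with 81.3 and 24.9 CPM in the daf-2 RNAi libraries, 274 and 204.0 CPM in the cav-1 RNAi libraries, and 220 and 267 CPM with EV, most of it from ilys-5. The thn sum was 816 and 432 CPM in the daf-2 RNAi libraries, 226 and 270.0 CPM in the cav-1 RNAi libraries, and 337 and 454 CPM with EV. The abf sum was 58.9 and 44.2 CPM in the daf-2 RNAi libraries, 27.2 and 14.6 CPM in the cav-1 RNAi libraries, and 40.1 and 19.7 CPM with EV. All 53 members together took 1.1% and 0.742% of the counts in the daf-2 RNAi libraries, 0.562% and 0.38% in the cav-1 RNAi libraries, and 0.598% and 0.449% with EV.

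**Figure D2:**
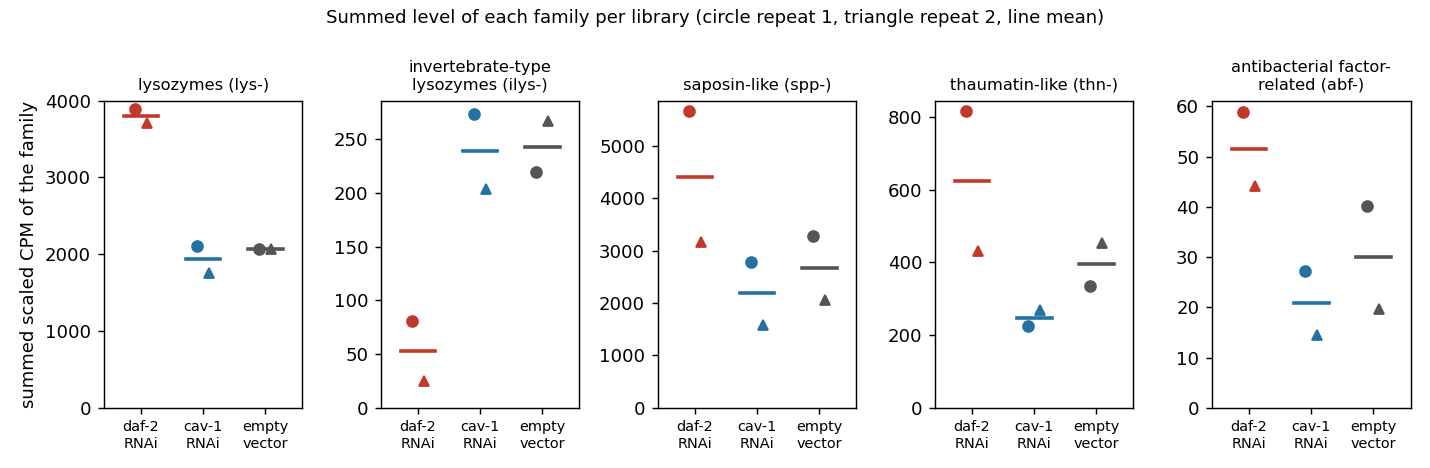
Summed scaled CPM of each family in each library, with circles for repeat 1, triangles for repeat 2 and a line at the mean of the 2 libraries; each panel has its own axis from 0. The lys sum is 3895 and 3713 CPM under daf-2 RNAi, against 2070 and 2072 CPM with EV, and the ilys sum is lowest under daf-2 RNAi.

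Under daf-2 RNAi, compared with EV, 7 saposin-like genes rose and 3 members from different families fell, ilys-5, thn-1 and spp-9. These 10 are 25.0% of the 40 tested members, where 7.44% of all tested genes were called, 4.31% higher and 3.13% lower. Of the 40 members, 34 had a log2 fold change above 0, with a median of 0.58, where 46.3% of all tested genes lay above 0 and their median was -0.05. In 25 of 40 (62.5%) the value under daf-2 RNAi was higher in both repeats, as it was in 32.5% of all tested genes. The daf-2 RNAi and EV libraries did not overlap in 52.5% of the members and in 27.7% of all tested genes. Among these members is spp-21, which passed the filter only through the EV libraries. Fold changes were computed after adding 1 CPM to each value, which understates the change of genes near or below that level. In samples of whole worms, fewer cells of a type and less RNA per cell cannot be told apart.

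Among the lysozymes, 0 of 8 lys genes passed the adjusted threshold, while 5 of 8 had an unadjusted p under 0.05 (limma), as did 24.2% of all tested genes. The closest was lys-7 (WBGene00003096, chromosome V from 3481432 to 3482600, minus strand), a lysozyme gene with a known part in defence against bacterial pathogens. It had 1400 and 814 CPM under daf-2 RNAi, against 378 and 603 CPM with EV. The groups did not overlap, and the log2 fold change was 1.16 (SE 0.31, adjusted p = 0.0502, limma). It was 1.89 in repeat 1 and 0.43 in repeat 2, so its size rested largely on repeat 1. The other abundant lys genes lay nearer to each other: lys-1 had 1143 and 1312 CPM under daf-2 RNAi, against 762 and 661 CPM with EV, and lys-8 had 452 and 589 CPM under daf-2 RNAi, against 273 and 356 CPM with EV. Their log2 fold changes were 0.79 (SE 0.22, adjusted p = 0.06) and 0.72 (SE 0.21, adjusted p = 0.0666), and lys-2 stood at 0.82 (SE 0.25, adjusted p = 0.077). For all 3 the groups did not overlap. The low-level gene lys-3 had 5.61 and 18.0 CPM under daf-2 RNAi, against 9.10 and 2.72 CPM with EV, and went in opposite directions in the 2 repeats. Its log2 value was 2.19 without daf-2 RNAi repeat 1 and 1.80 without EV repeat 1, and -0.24 and -0.06 without daf-2 RNAi repeat 2 or EV repeat 2. The lowest value of the family was that of lys-6, at 0.479 and 0.363 CPM under daf-2 RNAi, against 1.25 and 0.884 CPM with EV (log2 -0.54, SE 0.18, adjusted p = 0.115).

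Of 4 invertebrate-type lysozyme genes tested, ilys-5 fell (WBGene00017691, chromosome X from 6533490 to 6536840, minus strand). It had 60.5 and 15.9 CPM under daf-2 RNAi, against 208 and 258 CPM with EV, and its log2 fold change was -2.85 (SE 0.40, adjusted p = 0.00284, limma). This was the largest change of any member in this comparison, and its groups were well apart. Its size depended on the library: it was -1.74 without daf-2 RNAi repeat 2, -3.74 without daf-2 RNAi repeat 1, -3.57 without EV repeat 1 and -2.13 without EV repeat 2. By contrast ilys-3, an antibacterial lysozyme gene of pharynx and intestine, had 13.8 and 3.45 CPM under daf-2 RNAi, against 4.22 and 5.15 CPM with EV. It was higher in repeat 1 and lower in repeat 2 (log2 0.52, SE 0.39, adjusted p = 0.401). Its value was 1.25 without EV repeat 2 and 1.43 without daf-2 RNAi repeat 2, and -0.21 without EV repeat 1 or daf-2 RNAi repeat 1. The other 2, ilys-2 and ilys-4, had log2 fold changes of -0.03 and 0.18.

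The saposin-like family held 8 of the 10 calls, 7 higher and 1 lower among 21 genes tested. The largest rise was that of spp-12 (WBGene00004997, chromosome V from 13889816 to 13890327, plus strand), a caenopore gene studied in worms fed Bacillus thuringiensis. It had 18.0 and 10.5 CPM under daf-2 RNAi, against 3.99 and 2.14 CPM with EV, and its log2 fold change was 1.91 (SE 0.27, adjusted p = 0.00334). The rise was nearly the same in each repeat, at 1.93 and 1.88. The next was spp-20, with 4.82 and 4.72 CPM under daf-2 RNAi, against 1.52 and 0.184 CPM with EV (log2 1.74, SE 0.26, adjusted p = 0.00356). For spp-13 the values were 8.24 and 3.63 CPM under daf-2 RNAi, against 2.58 and 0.847 CPM with EV (log2 1.35, SE 0.27, adjusted p = 0.0136). These 3 genes were low in every library compared with spp-5, and in none of them did the daf-2 RNAi and EV libraries overlap.

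Lower still was spp-11, with 69 and 44 counts (2.36 and 1.33 CPM) under daf-2 RNAi, against 10 and 1 counts (0.391 and 0.0368 CPM) with EV, and it rose by 1.22 on the log2 scale (SE 0.18, adjusted p = 0.00343). Its EV repeat 2 library lay under the level of 3 counts. With 2 CPM added in place of 1 its value was 0.79, still called. At the other end of the range, spp-5 had 2050 and 787 CPM under daf-2 RNAi, against 1177 and 460 CPM with EV (log2 0.79, SE 0.21, adjusted p = 0.0473). Its libraries overlapped between groups because each repeat had its own level, and within repeats it was higher by 0.80 and 0.77. The call for spp-5 lay at the threshold and was lost in 11 of 14 alternative settings, in which the value ran from 0.59 to 1.01. The abundant spp-2 and spp-15 also rose: spp-2 had 490 and 229 CPM under daf-2 RNAi, against 230 and 89.5 CPM with EV (log2 1.22, SE 0.22, adjusted p = 0.00984), and spp-15 had 145 and 95.6 CPM under daf-2 RNAi, against 87.5 and 33.5 CPM with EV (log2 1.10, SE 0.26, adjusted p = 0.0276). Without daf-2 RNAi repeat 2 spp-2 stood at 1.24 (adjusted p = 0.0638) and spp-15 at 1.11 (adjusted p = 0.14), and without EV repeat 2 spp-15 stood at 0.73 (adjusted p = 0.438).

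Several saposin-like genes stood just short of the threshold. The DAF-16 target spp-1, whose product is a pore-forming caenopore, had 310 and 158 CPM under daf-2 RNAi, against 153 and 103 CPM with EV (log2 0.81, SE 0.22, adjusted p = 0.0509, limma). For spp-14 the values were 1570 and 819 CPM under daf-2 RNAi, against 783 and 573 CPM with EV (log2 0.76, SE 0.22, adjusted p = 0.0707). For spp-18 they were 11.2 and 21.1 CPM under daf-2 RNAi, against 6.80 and 4.34 CPM with EV (log2 1.35, SE 0.37, adjusted p = 0.0554). In all 3 the groups did not overlap. The value of spp-18 was 0.64 in repeat 1 and 2.05 in repeat 2. It was called in some alternative settings, among them median-of-ratios size factors (1.28, adjusted p = 0.0354, limma). Its value was 2.12 without daf-2 RNAi repeat 1 and 0.78 without daf-2 RNAi repeat 2. The prosaposin-like gene spp-10 stood at 0.67 (SE 0.21, adjusted p = 0.0867), while spp-17 and spp-8 had 0.26 and 0.01.

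Only spp-9 and its neighbour spp-21 lay below 0 among the 21 saposin-like genes tested. The gene spp-9 is known in worms as a gene held down by the TGF-beta ligand DBL-1. It had 8 and 17 counts (0.273 and 0.514 CPM) under daf-2 RNAi, against 31 and 30 counts (1.21 and 1.11 CPM) with EV, and fell with a log2 value of -0.64 (SE 0.17, adjusted p = 0.0479, limma). Its call was lost in 8 of 13 alternative settings, among them those without EV repeat 1 (-0.51), daf-2 RNAi repeat 1 (-0.51), daf-2 RNAi repeat 2 (-0.68) or cav-1 RNAi repeat 1 (-0.61). With 2 CPM added in place of 1 it stood at -0.40 (adjusted p = 0.052). At 5 and 10 counts under daf-2 RNAi, against 19 and 11 counts with EV, spp-21 had a log2 value of -0.34 (adjusted p = 0.237). It passed the filter only through the EV libraries, so a value below EV was favoured in advance.

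**Figure D3:**
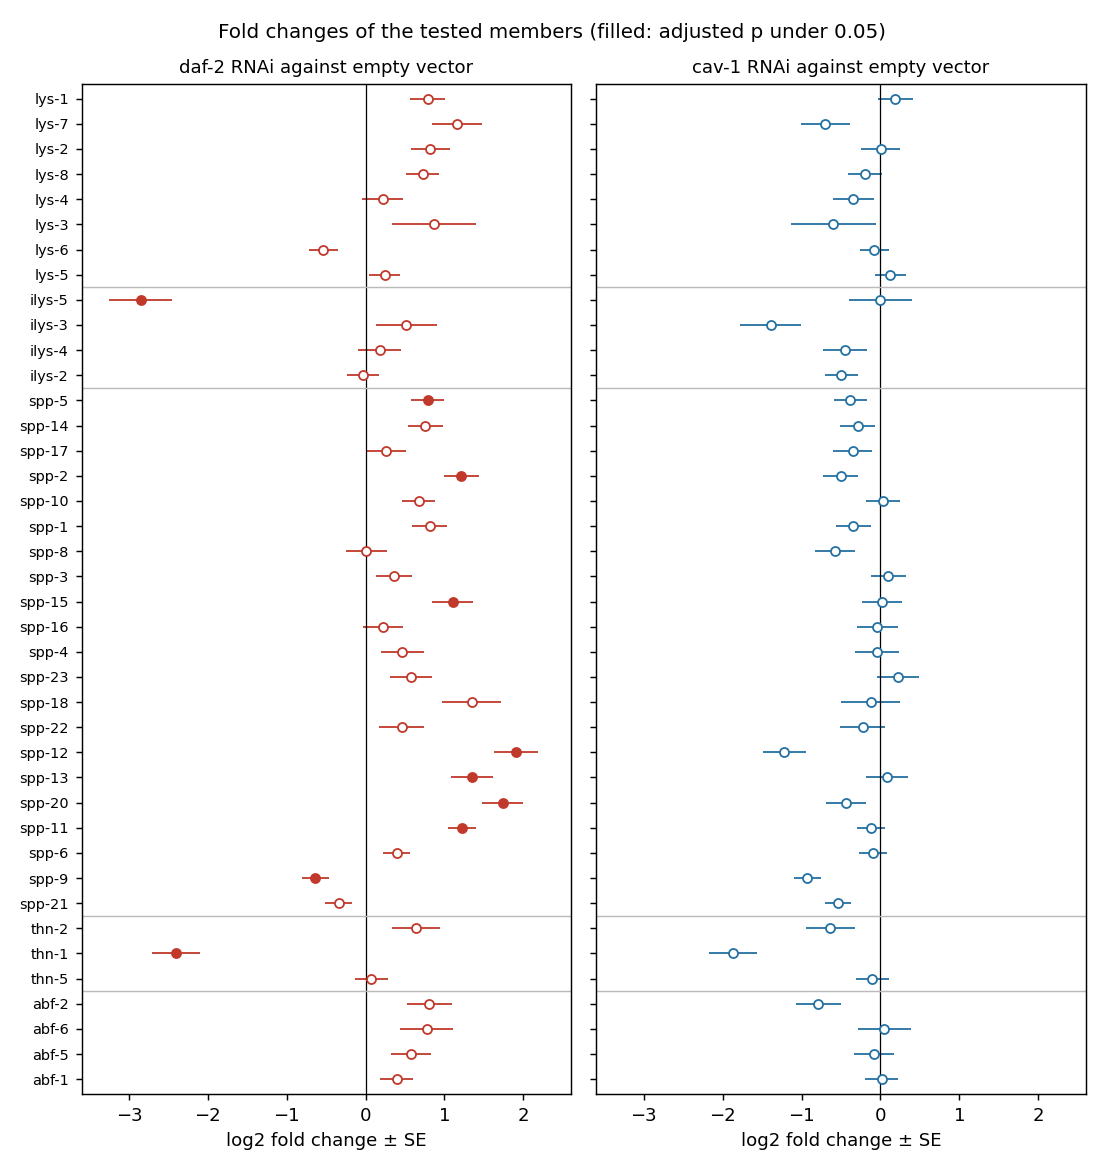
Log2 fold changes with standard errors of the 40 tested members under daf-2 RNAi (left) and cav-1 RNAi (right) against EV, filled where the limma adjusted p was under 0.05; both panels share the same EV libraries. On the left 34 of 40 values lie above 0 and 10 are filled; on the right 29 of 40 lie below 0 and none is filled.

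The thaumatin-like genes thn-1 and thn-2 had values of opposite sign. The low-level thn-1 (WBGene00009213, chromosome IV from 12380084 to 12380900, plus strand) fell: it had 1.47 and 1.03 CPM under daf-2 RNAi, against 8.01 and 14.5 CPM with EV (log2 -2.40, SE 0.30, adjusted p = 0.00179, limma), with no overlap. The abundant thn-2, which lies beyond the pseudogene thn-3 on the same strand, had 814 and 430 CPM under daf-2 RNAi, against 328 and 439 CPM with EV. It was 1.31 higher in repeat 1 and 0.03 lower in repeat 2 (log2 0.64, SE 0.31, adjusted p = 0.226). Its value was 1.48 without daf-2 RNAi repeat 2 and 1.01 without EV repeat 2, and 0.03 without daf-2 RNAi repeat 1 and 0.27 without EV repeat 1. The third, thn-5, was at or below 1.09 CPM everywhere, with a log2 value of 0.08.

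All 4 abf genes tested lay above 0 and 0 were called, while 3 of 4 had an unadjusted p under 0.05 (limma), beside the 24.2% of all tested genes. The defensin-like peptide gene abf-2 had 48.6 and 25.4 CPM under daf-2 RNAi, against 33.7 and 11.3 CPM with EV (log2 0.81, SE 0.29, adjusted p = 0.124). It was higher in both repeats, but its groups overlapped. For abf-6 the values were 1.74 and 12.1 CPM under daf-2 RNAi, against 1.72 and 3.53 CPM with EV (log2 0.77, SE 0.33, adjusted p = 0.191), a difference that was present in repeat 2 (1.53) and nearly absent in repeat 1 (0.01).

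Without the repeat term none of the 10 members was called, and with libraries scaled by total counts alone 16 were called, 14 higher and 2 lower, when 8.1% of all genes were. Without cav-1 RNAi repeat 2, which enters this comparison through the shared estimate of spread, 16 were called, 12 higher and 4 lower, but 15.5% of all genes were called there too, against 7.44% with every library.

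Under cav-1 RNAi, compared with EV, 0 of 40 members were called (limma), where 0.00696% of all tested genes were. The single gene called was cav-1 itself, the target of the RNAi. At an unadjusted p under 0.05 there were 10 of 40 members, against 3.99% of all tested genes. The values leaned downward: 29 of 40 lay below 0, with a median of -0.21 against -0.01 over all tested genes, and 22 of 40 (55.0%) were lower in both repeats, as were 24.1% of all tested genes. The smallest adjusted p was 0.134, for thn-1, which had 2.49 and 2.02 CPM under cav-1 RNAi, against 8.01 and 14.5 CPM with EV (log2 -1.87, SE 0.30). Its libraries did not overlap between groups, as was so for 25.0% of the members and 10.9% of all tested genes. Each of these counts of lower members includes spp-21, which passed the filter only through the EV libraries. Its value below EV was favoured in advance.

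The other low values came from the spp and ilys families. For spp-12 they were 0.681 and 0.721 CPM under cav-1 RNAi, against 3.99 and 2.14 CPM with EV (log2 -1.22, SE 0.27, adjusted p = 0.326, limma). For spp-9 they were 0.0889 and 0.180 CPM under cav-1 RNAi, from 3 and 5 counts, against 1.21 and 1.11 CPM with EV (log2 -0.93, SE 0.17, adjusted p = 0.153). For ilys-3 they were 1.78 and 0.685 CPM under cav-1 RNAi, against 4.22 and 5.15 CPM with EV (log2 -1.39, SE 0.39, adjusted p = 0.593). In these 3 genes, as in thn-1, both cav-1 RNAi libraries lay below both EV libraries. The genes thn-1, spp-9 and ilys-3 were singled out after their values were seen.

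Among members averaging 5 CPM or more, the next largest values after spp-12 were those of abf-2, lys-7, thn-2 and lys-3. The peptide gene abf-2 had 21.3 and 5.44 CPM under cav-1 RNAi, against 33.7 and 11.3 CPM with EV (log2 -0.79, SE 0.29, adjusted p = 0.977). For lys-7 the values were 348 and 248 CPM under cav-1 RNAi, against 378 and 603 CPM with EV, a log2 value of -0.12 in repeat 1 and -1.28 in repeat 2 (pooled -0.70, SE 0.31). For thn-2 they were 223 and 267 CPM under cav-1 RNAi, against 328 and 439 CPM with EV (log2 -0.63, SE 0.31), with no overlap. The value of lys-3, at 4.15 and 2.20 CPM under cav-1 RNAi against 9.10 and 2.72 CPM with EV, was -0.60 (SE 0.54) and turned to 0.33 without EV repeat 1. The most abundant saposin-like genes were closer to EV, with log2 values of -0.38 for spp-5 (911 and 350.4 CPM under cav-1 RNAi) and -0.29 for spp-14 (656 and 459 CPM). Unlike under daf-2 RNAi, ilys-5 had 268 and 200.4 CPM under cav-1 RNAi, against 208 and 258 CPM with EV, a log2 value of 0.00 (SE 0.40).

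The count of 0 changed with the libraries used. In the fits that changed it, each gene took the spread of genes at its level and not its own. It was 3 without EV repeat 1 (thn-1, ilys-3 and lys-7), and 4 without EV repeat 2, daf-2 RNAi repeat 1, daf-2 RNAi repeat 2 or cav-1 RNAi repeat 2; thn-1 was among them each time, at log2 values between -2.38 and -1.35, and each call was on the lower side. In these 5 settings between 0.523% and 2.77% of all genes were called. For lys-7 the value was -1.35 without EV repeat 1 and -0.04 without EV repeat 2, and for lys-3 it was -1.53 without EV repeat 2.

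Under daf-2 RNAi, compared with cav-1 RNAi, 16 of 40 members were called (40.0%), 15 higher and 1 lower. Over all tested genes 10.6% were called, 6.87% higher and 3.74% lower. In 35 of 40 (87.5%) the daf-2 RNAi value was higher in both repeats, against 39.7% of all tested genes, and the median log2 difference was 0.65, against 0.01. All 21 saposin-like genes tested lay above 0, and 10 of them were called. This comparison uses the same daf-2 RNAi libraries as the one against EV and the same cav-1 RNAi libraries as the other, so it is no independent repeat of either.

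The largest difference was that of spp-12, with 18.0 and 10.5 CPM under daf-2 RNAi, against 0.681 and 0.721 CPM under cav-1 RNAi (log2 3.12, SE 0.27, adjusted p = 0.000192, limma). The EV libraries, at 3.99 and 2.14 CPM, stood between the 2 RNAi groups. For spp-20 the values were 4.82 and 4.72 CPM under daf-2 RNAi, against 0.474 and 0.108 CPM under cav-1 RNAi (log2 2.17, SE 0.26, adjusted p = 0.00113), and for spp-2 they were 490 and 229 CPM under daf-2 RNAi, against 176 and 57.8 CPM under cav-1 RNAi (log2 1.72, SE 0.22, adjusted p = 0.00177). Below these, spp-18, spp-11, spp-13, spp-5, spp-1, spp-15 and spp-14 differed by log2 values between 1.05 for spp-14 and 1.47 for spp-18. In both repeats each of these 10 genes was higher under daf-2 RNAi. Under cav-1 RNAi spp-20 had only 16 and 3 counts, and spp-11 had 5 and 2.

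Outside the saposin-like family, lys-7 had 1400 and 814 CPM under daf-2 RNAi, against 348 and 248 CPM under cav-1 RNAi (log2 1.86, SE 0.31, adjusted p = 0.00569, limma), and lys-8 had 452 and 589 CPM under daf-2 RNAi, against 222 and 335 CPM under cav-1 RNAi (log2 0.92, SE 0.21, adjusted p = 0.023). The difference in ilys-3 was 1.91 (SE 0.39, adjusted p = 0.0131), that in abf-2 was 1.59 (SE 0.29, adjusted p = 0.00733) and that in thn-2 was 1.27 (SE 0.31, adjusted p = 0.0272). Without daf-2 RNAi repeat 1 ilys-3 stood at 1.18, and without daf-2 RNAi repeat 2 it stood at 2.82 and lys-7 at 2.50. Of these 5 genes, none was called in either comparison against EV. The fall was that of ilys-5, with 60.5 and 15.9 CPM under daf-2 RNAi, against 268 and 200.4 CPM under cav-1 RNAi (log2 -2.85, SE 0.40, adjusted p = 0.00257). It was -1.75 without daf-2 RNAi repeat 2 and -3.76 without daf-2 RNAi repeat 1. Lower in both RNAi groups than with EV, thn-1 differed little between them (log2 -0.54, SE 0.30, adjusted p = 0.213).

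Without cav-1 RNAi repeat 1 most calls of this comparison were lost, over all genes as well as among the members. This fit, like each that left out a library, had 1 residual degree of freedom. The prior added 4.87 to it, where the prior of the others was infinite. The members that lost their calls, all but spp-2 and spp-12, kept their direction. Their log2 values were, for example, 2.09 for lys-7, 1.91 for abf-2, 2.14 for spp-20 and -3.02 for ilys-5, and the smallest was 0.82 for lys-8. Without any filter on low counts 9 members were called, and 5.71% of all genes. Without daf-2 RNAi repeat 1 thn-2 stood at 0.65 (adjusted p = 0.415), spp-14 at 0.82 (adjusted p = 0.208), spp-1 at 1.04 (adjusted p = 0.125) and lys-8 at 0.87 (adjusted p = 0.198), and without daf-2 RNAi repeat 2 spp-18 stood at 0.89 (adjusted p = 0.212), spp-15 at 1.08 (adjusted p = 0.122) and lys-8 at 1.17 (adjusted p = 0.0555).

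**Figure D4:**
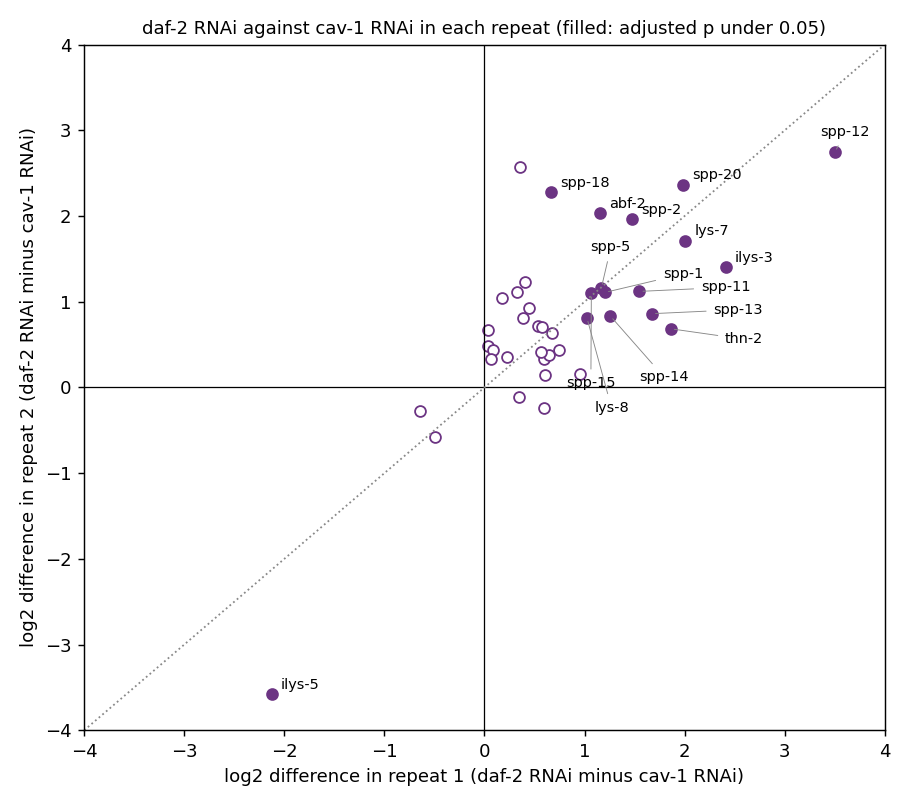
Log2 difference (daf-2 RNAi minus cav-1 RNAi) of the 40 tested members in repeat 1 (horizontal) and repeat 2 (vertical), filled and named where the limma adjusted p was under 0.05, with a dotted line of equality. Of the 40 points 35 lie above 0 in both repeats, spp-12 is highest in both, and of the 3 points below 0 in both (ilys-5, lys-6 and thn-1) ilys-5 lies furthest down and to the left.

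The members are clustered in the genome, with 20 on chromosome IV, 13 on X and 11 on V (WBcel235). On X, spp-3, spp-2, spp-6, spp-4 and spp-5 lie in this order between positions 7314969 and 7320354, with no other protein-coding gene between them. All 5 lay above 0 under daf-2 RNAi against EV, with log2 values of 0.36 for spp-3, 1.22 for spp-2, 0.39 for spp-6, 0.47 for spp-4 and 0.79 for spp-5, of which spp-2 and spp-5 were called. Their levels were far apart: per kilobase spp-5 had 2580 CPM and spp-6 had 1.77 CPM, with spp-6 on the plus strand and the other 4 on the minus strand. On V, lys-1, lys-2 and lys-3 lie between 10277904 and 10283544. The values of lys-1 and lys-2 were 0.79 and 0.82. The 0.87 of lys-3 (SE 0.54) averaged -0.61 in repeat 1 and 2.35 in repeat 2, and its level was 6.21 CPM per kilobase where that of lys-1 was 956. Next to each other on X from 11487784 to 11490494 are spp-9 and spp-21, the 2 saposin-like genes below 0 under daf-2 RNAi. Of these, spp-21 passed the filter only through the EV libraries. Other clusters held both signs: lys-4, lys-5 and lys-6 had 0.22, 0.24 and -0.54, and ilys-3 with ilys-2 and thn-1 with thn-2 also differed in sign. The pairs spp-17 with spp-23, spp-10 with spp-8, abf-1 with abf-2, and abf-5 with abf-6 lay above 0, as did 34 of all 40 members. How the counting treated reads shared between related neighbours is not given in the sources used here, so values of close relatives in these clusters are uncertain.

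**Figure D5:**
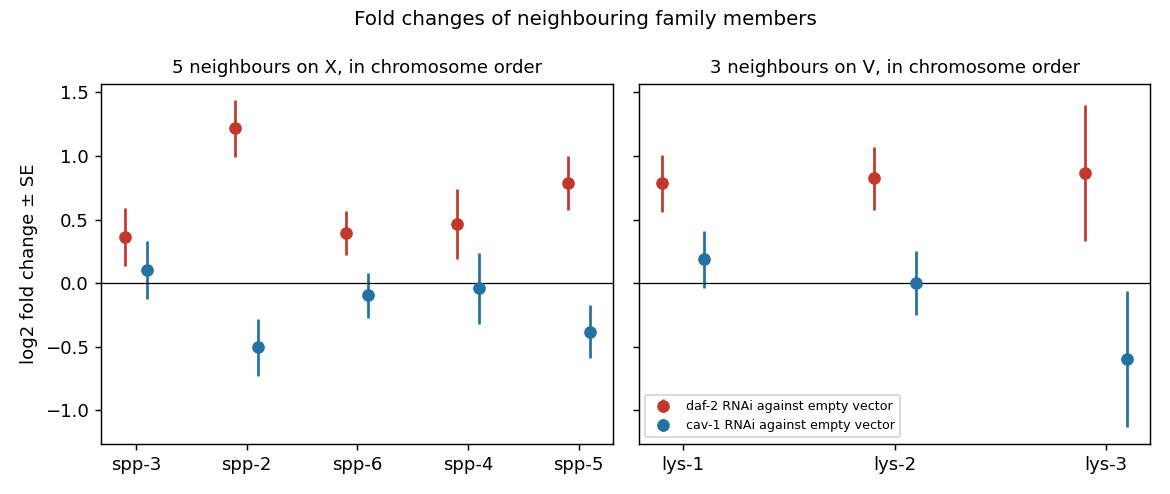
Log2 fold changes with standard errors of 5 neighbouring saposin-like genes on X and 3 neighbouring lysozyme genes on V, in chromosome order, under daf-2 RNAi (left point of each pair) and cav-1 RNAi (right point) against the same EV libraries. All 8 daf-2 RNAi values lie above 0, from 0.36 for spp-3 to 1.22 for spp-2, as do 34 of all 40 tested members. The value of lys-3 averages repeats of opposite sign. Other clusters, some with values of both signs, are not drawn.

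Some members share bases with other genes, and whether the counting used strand is not given in the sources used here. Of the called genes, spp-15 overlaps 243 exonic bases of C48E7.6 on the opposite strand, which had 2.67 and 7.59 CPM under daf-2 RNAi, against 1.99 and 3.76 CPM with EV. That is well under the level of spp-15 itself. The gene spp-1 overlaps 19 bases of T07C4.3, which had a log2 value of -0.52 (adjusted p = 0.187, limma) under daf-2 RNAi, opposite in sign to spp-1. The tested ilys-4 lies within the span of atic-1 without sharing exonic bases, and atic-1 rose by 1.59 (adjusted p = 0.00265).

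Between repeats, 17 of 40 members were called, 2 higher in repeat 2 and 15 lower, against 57.6% of all tested genes. The median log2 difference (repeat 2 minus repeat 1) was -0.40, against -0.13 over all tested genes. The 2 that were higher in repeat 2 were abf-6, by 1.49 (SE 0.27, adjusted p = 0.00104, limma), and lys-8, by 0.45 (SE 0.17, adjusted p = 0.0436). Among the lower ones were abf-2 at -1.40, spp-5 at -1.37, spp-2 at -1.35 and lys-4 at -1.22. Most members have short transcripts. With each library's trend on transcript length removed, the median difference between repeats was 0.12. In that fit 10 members were called, 6 higher and 4 lower, where 46.3% of all genes were called. The part of transcript length in the difference between repeats was not tested. Fewer members, and fewer of all genes, were called between repeats when either daf-2 RNAi library was left out. With the length trend removed, the median under daf-2 RNAi against EV was 0.39 over the members and -0.07 over all genes.

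A list of 37 genes of immune signalling and its transcription factors, 36 of them tested, covered the p38 MAP kinase, insulin, DBL-1 and Wnt pathways and the intestinal GATA factors. Under daf-2 RNAi against EV 1 was higher and 0 lower (limma), where 7.44% of all tested genes were called, and 7 of 36 had an unadjusted p under 0.05, where 24.2% of all tested genes did. The median of the list was 0.30, against -0.05 over all tested genes. The call was vhp-1, a MAP kinase phosphatase gene, with 53.8 and 139 CPM under daf-2 RNAi, against 33.1 and 57.1 CPM with EV (log2 0.98, SE 0.26, adjusted p = 0.0449); no gene of the list was called without EV repeat 1, without EV repeat 2 or without daf-2 RNAi repeat 2, and 2 and 3 were without cav-1 RNAi repeat 1 and repeat 2. The DAF-16 gene itself, daf-16, had 96.6 and 159 CPM under daf-2 RNAi, against 71.7 and 137 CPM with EV (log2 0.32, SE 0.22, adjusted p = 0.361), and the p38 gene pmk-1 had a log2 value of -0.25 (adjusted p = 0.543). Under cav-1 RNAi against EV 0 of 36 were called (limma), beside 0.00696% of all tested genes, and 0 had an unadjusted p under 0.05, beside 3.99%. Under daf-2 RNAi against cav-1 RNAi 1 of 36 was called, where 10.6% of all tested genes were. It was pqm-1, a zinc finger transcription factor gene linked to insulin signalling, at 74.5 and 77.5 CPM under daf-2 RNAi, against 37.3 and 28.7 CPM under cav-1 RNAi (log2 1.19, SE 0.24, adjusted p = 0.0123); the count was 0 without daf-2 RNAi repeat 2 or cav-1 RNAi repeat 1, and 3 without EV repeat 1, EV repeat 2 or cav-1 RNAi repeat 2.

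Markers of the tissues that could hold these transcripts are set here beside the 4.31% of all tested genes called higher and the 3.13% called lower under daf-2 RNAi against EV. Of 14 intestinal markers tested, 1 was higher (ges-1, log2 1.56, adjusted p = 0.00395, limma) and 3 were lower (pept-1 at -1.69, pho-1 at -1.28 and mtl-2 at -0.93), with a median of -0.30. Their summed level was 1354 and 2172 CPM in the daf-2 RNAi libraries, 1106 and 2573 CPM in the cav-1 RNAi libraries, and 1430 and 2751 CPM with EV, and none was at 0. Of 8 pharyngeal markers tested of 12 listed, 1 was higher, with sums of 28.3 and 219 CPM in the daf-2 RNAi libraries, 22.01 and 144 CPM in the cav-1 RNAi libraries, and 16.9 and 134 CPM with EV; the gland marker phat-5 had no count. Of 8 hypodermal markers tested 2 were higher, with sums of 945 and 1374 CPM under daf-2 RNAi, against 609 and 704 CPM with EV. Of 8 embryo and germline markers 4 were lower, with a median of -0.72 and sums of 667 and 1999 CPM under daf-2 RNAi, against 1011 and 2958 CPM with EV. Of 3 coelomocyte markers 0 were called, and 1 had an unadjusted p under 0.05. Their part in the values of the members was not tested. Under cav-1 RNAi against EV 0 markers of any of these lists were called, and 1, an intestinal one, had an unadjusted p under 0.05.

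The authors' own comparisons were made with other software on the same counts. The fit above added 1 CPM to each value and had a repeat term. How the authors' fold changes were estimated was not examined, so their sizes are not directly comparable with those above. Under daf-2 RNAi against EV the authors' deposited table had an adjusted p for 39 members, and at a threshold of 0.05 it called 11 higher and 2 lower, which is 13 of 39. Over all genes with an adjusted p in that table, 9.55% were called. The authors' deposited table called lys-1, lys-2, lys-7 and spp-18 higher, which lay between 0.0502 and 0.077 in the fit above, and did not call spp-9 (log2 -0.93, adjusted p = 0.152). For ilys-5 the authors' deposited table gives a log2 fold change of -1.27 (adjusted p = 0.0361), and for thn-1 it gives -2.54. Under cav-1 RNAi against EV the authors' deposited table called 3 of 40 members, all lower, where 0.57% of all genes with an adjusted p were called: thn-1 at -1.85 (adjusted p = 0.000114), spp-12 at -1.54 (adjusted p = 0.00256) and ilys-3 at -1.51 (adjusted p = 0.0188).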

How the data were processed

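The authors deposited their raw read counts for each gene in 1 table, beside their own DESeq2 results. Genome build WBcel235, DESeq2 1.10.1, Cufflinks 2.2.1, TopHat2 2.0.13, cutadapt 1.7.1 and bcl2fastq 2.15.0.4 are named, per the submitters' processing notes. The counting tool, the annotation release and the treatment of shared reads were not given in the sources used here. Per the labels' protocols, 1 µg of RNA went into each stranded mRNA library. In the deposited count columns 494 of 46748 rows (1.06%) held no value, so these columns were handled as a score without a count model, and the rows were left out. The log2 fold changes and p-values of the authors' deposited table are quoted as deposited. Their 6 columns of normalised values were not used here.

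Genes with at least 0.348 CPM, which is 10 counts in a library of median size, in 2 or more libraries, and a total of 15 counts or more, were tested, 14378 genes with 99.961% of all reads counted. TMM factors, from 0.922 to 1.04, scaled the libraries after trimming 30% of log ratios and 5% of mean levels. Values were log2 of the scaled CPM plus 1. limma-trend (R 4.3.3, limma 3.58.1) was fitted to all 6 libraries with group and repeat as terms, 2-sided, with Benjamini-Hochberg adjustment within each comparison at 0.05. The repeat block follows the series' design, in which each repeat held 1 library of every group; each library's deviation from its group mean correlated with that of its repeat partner at 0.891, 0.807 and 0.812 across 14378 genes for daf-2 RNAi with EV, cav-1 RNAi with EV, and the 2 RNAi groups. Residual degrees of freedom were 2, with 8.68 from the prior. The procedure was tested on simulated data. These had the same repeat effect in every group, as the fit assumes, so they cannot test the choice of the block.

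All 53 members matched the Ensembl annotation of WBcel235 by gene identifier, which gave positions and transcript lengths. A further 8 genes named spp in a reference list of names carry sequence names or no row in the table and fall outside the rule. Genes described in full were all called members, the 2 most abundant of each family and, where fewer than 5 were called, the 5 largest changes among members averaging at least 5 CPM. The members, gene lists and the blocked fit were chosen with earlier results of these data known, including that the fit without the block calls no gene. Alternatives were other scalings, pseudocounts of 0.5 and 2 CPM, no filter, a filter at 5 CPM, removal of the length trend, no block, and leaving out each library. Gene and protein sequences were not analysed here.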

Additional observations from a re-analysis of the deposited data

How the results depend on the processing

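With 2 libraries a group, the calls rest on treating the repeats as pairs. With no replicate block, 0 members were called under daf-2 RNAi against EV or against cav-1 RNAi, and 0 of the immune signalling list in either; the fit then had 3 residual degrees of freedom. The fits that left out a library had 1 residual degree of freedom. In all of them but that without cav-1 RNAi repeat 1, where it was 4.87, the prior was infinite. Each gene in those fits took the spread of genes at its level, so its own spread did not enter its call. Leaving out 1 library at a time leaves 1 group with a lone library, assumed to vary like the others. The share of all genes called also changed between these fits, most under daf-2 RNAi against cav-1 RNAi. The member counts are to be read beside that change. The count of members called then ran from 10 to 16 under daf-2 RNAi against EV, from 0 to 4 under cav-1 RNAi against EV, from 2 to 20 under daf-2 RNAi against cav-1 RNAi, and from 9 to 19 between repeats. For the immune signalling list the range was 0 to 3 in both comparisons with daf-2 RNAi.

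Scaling by total counts gave 16 members under daf-2 RNAi against EV, where 8.1% of all genes were called. Testing without a filter gave 9 under daf-2 RNAi against cav-1 RNAi, where 5.71% of all genes were called. Removing the length trend gave 10 between repeats, where 46.3% of all genes were called. The immune signalling list had 2 calls under daf-2 RNAi against EV with total counts, with the filter at 5 CPM and with the length trend removed. It had 2 under daf-2 RNAi against cav-1 RNAi with median-of-ratios size factors, with a pseudocount of 0.5 CPM, with the filter at 5 CPM and with the length trend removed. The cause was not tested. The 31 values followed through the settings were those called, and the 5 largest under cav-1 RNAi against EV among members averaging at least 5 CPM. Of these, 1 changed direction: lys-3 under cav-1 RNAi against EV stood at 0.33 without EV replicate 1 and at -1.53 without EV replicate 2. Uncalled values outside these 31 also did. Under daf-2 RNAi against EV, lys-3 turned to -0.24 without daf-2 RNAi replicate 2, and ilys-3 to -0.21 without EV replicate 1. Under daf-2 RNAi against EV, ilys-5, thn-1, spp-11, spp-12 and spp-20 lost their calls only in the fit without the block, among the settings that tested them (13 for spp-11 and spp-20, which the filter at 5 CPM removed, and 14 for the others). The limit on fits without 1 library, given above, applies to these calls too. Depth limits lys-5, spp-6, spp-9, spp-11, spp-21 and thn-5, which had 31 counts or fewer in each EV library. It also limits spp-20, which had 5 counts in EV repeat 2 and 3 in cav-1 RNAi repeat 2.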
